A study of Drosophila montana with 12 samples.

Results

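Reproductive diapause is a state in which adult females survive winter with small ovaries and large energy stores, and in *D. montana* it is induced by short days. Day length is read through the photoperiodic system, and the critical day length (CDL) is the day length at which the females of a population divide into diapausing and nondiapausing individuals. Under a day shorter or longer than the CDL nearly all females are of a single type, so that state and day length change together, which is not so at the CDL. The comparison described here sets the 6 libraries of females kept at the CDL against the 6 libraries of females kept at the other light cycles, out of 12 libraries in all. Every contig was compared as the mean of the 2 CDL groups minus the mean of the 2 other groups, each CDL group being set against the group of its own diapause state.

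The libraries fall into 4 groups of 3. The CDL groups are diapausing and nondiapausing females of that light cycle, and the other groups are diapausing females of LD 16:8 (16 h light and 8 h dark) and nondiapausing females of LD 22:2 (22 h light and 2 h dark). Each library was made from polyA RNA of a pool of 10 whole females of 21 d of age. The methods give the dark period at the CDL as 5.5 h, which leaves 18.5 h of light in 24 h, whereas the sample labels give 17.5 h of light. The CDL thus lies between the other light cycles in day length, and each CDL group is compared with only the cycle of its own state. A difference at the CDL in both states can thus not be told apart from opposite day-length trends in diapausing and nondiapausing females. All 6 libraries of the other light cycles were of isofemale line 175OJ8, and the CDL groups each held 1 library of line 175OJ8, 1 of line 265OJ8, and 1 of line 3OL8. A difference between the CDL and the other cycles can therefore not be told apart from a difference of lines 265OJ8 and 3OL8, other than in the 8 libraries of line 175OJ8. In the CDL groups the libraries are of separate isofemale lines, so their spread includes differences between lines. Nothing in the sources states that the libraries of each other group came from separate cultures. *P* values thus measure the spread between these pools, of 3 lines in the CDL groups and of 1 line in the others.

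Read counts were obtained for 31233 contigs of a *de novo* transcriptome, with totals of 2986505 to 6637623 reads per library. The lowest total was that of nondiapausing females of line 3OL8 at the CDL. Values are given below as counts scaled to a library of 1000000 reads (CPM) after TMM normalization, and CDL values are in the order of lines 175OJ8, 265OJ8, and 3OL8. In whole females, fewer cells of a type and less RNA per cell cannot be told apart. The labelled state was checked with the yolk protein gene *Yp2* (contig_8009), which is expressed in the fat body and ovary of females that mature eggs. It had 258 to 453 CPM in the 6 nondiapausing libraries and 23.5 to 124 CPM in the 6 diapausing libraries, without overlap.

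At the CDL, 334 of 31233 contigs (1.07%) were differentially expressed (DE) against the other light cycles at an FDR of 0.05 in the two-sided likelihood ratio test of edgeR. Of these, 220 were lower (0.704% of all contigs) and 114 higher (0.365%) at the CDL, and 3085 contigs had an unadjusted *P* under 0.05. The quasi-likelihood test of edgeR, which allows for the uncertainty of each contig's dispersion, called 58 contigs (0.186%), and all of these were among the 334. Of the 58, 49 were lower (0.157% of all contigs) and 9 higher (0.0288%) at the CDL. Libraries of one line are paired across the CDL groups, and limma-voom gave 70 DE contigs without a block, 40 with a replicate block as a random effect, and 36 with line as a random effect. The replicate block paired the CDL libraries by line and the libraries of the other cycles by replicate number. Of the 49 lower and 9 higher contigs, limma-voom called 47 and 7 without the block and 32 and 4 with it. Gene names below are those of *D. melanogaster* orthologs and were at hand for 10 of the 58. These 10 include *Pepck* of gluconeogenesis, the receptor kinase gene *Gprk2*, and *dpp* of BMP signaling, which were higher, and *MED28* of the Mediator complex, *thr* of chromosome segregation, *YL-1* of chromatin remodeling, and *Acetyl-CoA carboxylase* of fatty acid synthesis, which were lower.

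The 49 contigs that were lower at the CDL in both tests had a median log2 fold change of -1.06, with a range of -2.18 to -0.74. Their median level over all libraries was 35.9 CPM (range 8.33 to 545), above the median of 8.40 CPM of all contigs. The difference was of similar size in both types of female, with a median log2 fold change of -1.13 in diapausing females against LD 16:8 and of -1.01 in nondiapausing females against LD 22:2. The 49 were chosen on the mean of these 2 differences in the same libraries. Their shared sign, and the separation of the libraries given below, were thus in large part fixed by the choice. Tested within one type of female, 28 of the 49 were DE in diapausing females (0.403% of all contigs) and 13 in nondiapausing females (0.224% of all contigs), with 7 in both and 15 in neither. In 44 of the 49, every CDL library lay below every other library of the same diapause state (0.967% of all contigs, and 1.78% in either direction), and in 19 all 6 CDL libraries lay below all 6 other libraries (0.199% of all contigs, and 0.272% in either direction). Between the 2 types of female at the CDL itself, 23 of the 49 differed, and 49.5% of all contigs differed in that comparison. Of the 23, 22 were higher in diapausing females. The share of all contigs with that direction was not counted, so it is not known whether this sets the 49 apart.

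*MED28* (contig_26556) encodes a subunit of the Mediator, the complex that links transcription factors to RNA polymerase II. It had 37.8, 58.5, and 31.6 CPM at LD 16:8 and 36.6, 23.6, and 23.9 CPM at LD 22:2. At the CDL it had 8.13, 15.0, and 14.3 CPM in diapausing and 14.6, 17.7, and 14.2 CPM in nondiapausing females. All 6 CDL libraries were thus below all 6 others, and the 2 types of female at the CDL overlapped. For *MED28* the fit gave a log2 fold change of -1.31 (standard error 0.206; FDR 1.07e-06, and 0.00978 in the quasi-likelihood test). In line 175OJ8 alone it was -1.67, with an FDR of 0.000165.

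*YL-1* (contig_8119) encodes a chromatin protein that handles the histone variant of the H2A.Z family. It had 117, 219, and 89.5 CPM at LD 16:8 and 134, 94.3, and 141 CPM at LD 22:2, and at the CDL 54.1, 58.5, and 57.3 CPM in diapausing and 49.3, 57.4, and 68.6 CPM in nondiapausing females. The CDL libraries formed a narrow range below all others. For *YL-1* the log2 fold change was -1.20 (standard error 0.239; FDR 0.000636, and 0.0216 in the quasi-likelihood test), and in line 175OJ8 alone it was -1.36 (FDR 0.0392). *thr* (contig_19929), needed for the separation of sister chromatids, had 24.6, 20.7, and 21.0 CPM at LD 16:8 and 30.2, 26.9, and 29.5 CPM at LD 22:2. Its CDL values were 11.0, 14.2, and 16.0 CPM in diapausing and 15.9, 14.3, and 17.5 CPM in nondiapausing females. Here too the 6 CDL libraries lay below the 6 others, with a log2 fold change of -0.78 (standard error 0.154). The FDR of *thr* was 0.00037, and 0.0197 in the quasi-likelihood test. In line 175OJ8 alone its log2 fold change was -0.93. contig_28805, which has the same blast hit as *thr* and a mean of 11.1 CPM, had the opposite sign, with a log2 fold change of 0.58 (FDR 0.408).

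*CG10177* (contig_29596) differed between the lines as well as between the light cycles. It had 71.8, 95.2, and 58.3 CPM at LD 16:8 and 36.7, 45.3, and 31.8 CPM at LD 22:2. At the CDL it had 10.2, 24.3, and 25.6 CPM in diapausing and 8.04, 15.8, and 12.2 CPM in nondiapausing females. Line 175OJ8 had the lowest value in either CDL group, and the CDL libraries of all lines lay below all other libraries. For *CG10177* the log2 fold change was -1.78 (standard error 0.230; FDR 4.42e-10, and 0.00421 in the quasi-likelihood test). In line 175OJ8 alone it was -2.56 (FDR 7.46e-13), and at the CDL lines 265OJ8 and 3OL8 were higher than line 175OJ8 by a log2 fold change of 1.05 (FDR 0.0368). *CG8564* (contig_29299) also had its lowest value in either CDL group in line 175OJ8, with 299, 310, and 173 CPM at LD 16:8 against 78.3, 107, and 158 CPM in diapausing females at the CDL. In nondiapausing females it had 39.2, 42.4, and 62.6 CPM at the CDL against 137, 94.4, and 105 CPM at LD 22:2. The groups did not overlap within either type of female, and the log2 fold change of *CG8564* was -1.21 over all libraries (standard error 0.252; FDR 0.00124, and 0.0265 in the quasi-likelihood test) and -1.63 in line 175OJ8 alone (FDR 0.00207).

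A contig of the gene for acetyl-CoA carboxylase, which makes the malonyl-CoA used in fatty acid synthesis, differed both by state and by light cycle. The contigs with the same blast hit, contig_1145 and contig_9778, were not DE at the CDL. They had means of 166 and 23.3 CPM and log2 fold changes of -0.67 and -0.33 (FDR 0.306 and 0.677). *Acetyl-CoA carboxylase* (contig_6502) had 149, 74.5, and 123 CPM at LD 16:8 against 64.2, 39.9, and 45.5 CPM in diapausing females at the CDL. In nondiapausing females it had 9.38, 11.8, and 8.61 CPM at the CDL against 15.4, 15.3, and 23.5 CPM at LD 22:2. The CDL libraries lay below the others in both types of female, while every diapausing library lay above every nondiapausing one. For *Acetyl-CoA carboxylase* the log2 fold change was -1.03 (standard error 0.221; FDR 0.00169, and 0.037 in the quasi-likelihood test), and in line 175OJ8 alone it was -0.90 and not DE (FDR 0.223), nor was it DE with the replicate block (adjusted *P* 0.0615, and 0.0464 without the block, in limma-voom). *CG32079* (contig_15352), listed by the study with ion transport, was the remaining named contig that was lower in both tests. Its groups overlapped in diapausing females, with 1030.2, 909, and 358 CPM at LD 16:8 and 546, 466, and 228 CPM at the CDL, whereas in nondiapausing females all CDL values (263, 194, and 198 CPM) were below those at LD 22:2 (988, 684, and 682 CPM). For *CG32079* the log2 fold change was -1.37 (standard error 0.287; FDR 0.0015, and 0.0336 in the quasi-likelihood test), and in line 175OJ8 alone it was -1.03 and not DE (FDR 0.433). In limma-voom the adjusted *P* of *CG32079* was 0.0419 without and 0.0554 with the replicate block.

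**Figure D1:**
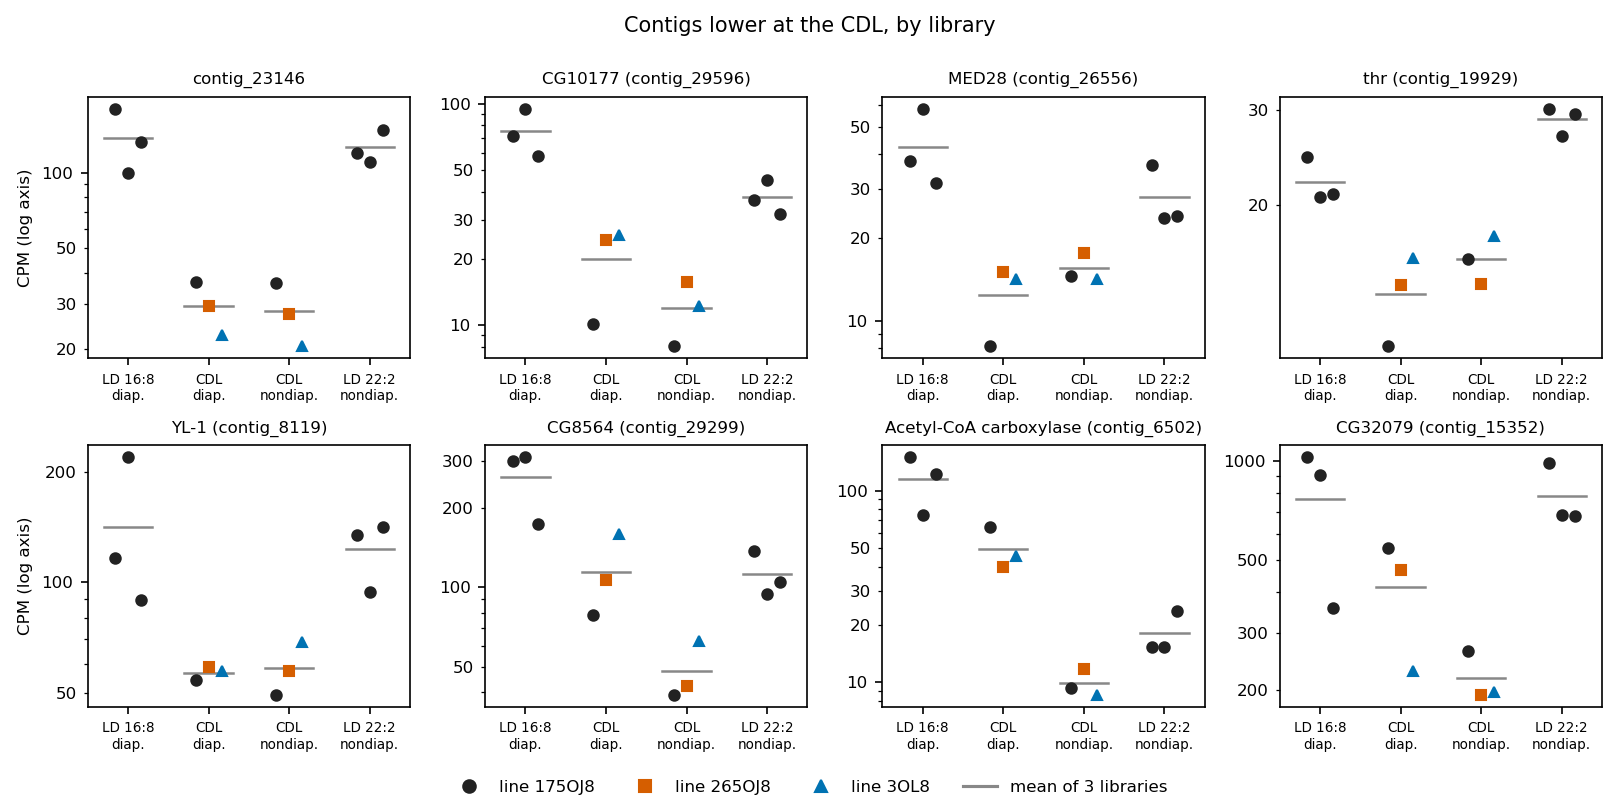
CPM per library (log axis) of 8 contigs that were lower at the CDL in both tests, in the 4 groups, with the isofemale line as symbol and the mean of 3 libraries as a bar. In contig_23146, *CG10177*, *MED28*, *thr*, and *YL-1* all 6 CDL libraries lie below all 6 others, and in *CG32079* the diapausing groups overlap.

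The contig with the lowest FDR in the whole comparison, contig_23146, is not paired with a gene symbol. It had 179, 99.8, and 133 CPM at LD 16:8 and 120, 110, and 148 CPM at LD 22:2, so that the 2 other light cycles overlapped. At the CDL it had 36.8, 29.5, and 22.7 CPM in diapausing and 36.6, 27.4, and 20.5 CPM in nondiapausing females. At the CDL the values of each line were nearly the same in both types of female, and line 175OJ8 was the highest. Over all libraries its log2 fold change was -2.18 (standard error 0.227; FDR 5.67e-16, and 0.000129 in the quasi-likelihood test), and in line 175OJ8 alone it was -1.84 (FDR 4.65e-05). It was DE in diapausing females (log2 fold change -2.21, FDR 5.33e-07) and in nondiapausing females (log2 fold change -2.15, FDR 2.76e-06).

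A difference of similar size in both types of female was found for contig_4922, an abundant contig without a gene symbol. It had 406, 574, and 229 CPM at LD 16:8 and 216, 128, and 145 CPM at LD 22:2, against 120, 103, and 57.3 CPM in diapausing and 42.7, 45.2, and 20.8 CPM in nondiapausing females at the CDL. Its log2 fold change was -2.13 (standard error 0.293; FDR 1.86e-08, and 0.00421 in the quasi-likelihood test), and in line 175OJ8 alone it was -1.84 (FDR 0.00396). contig_19190 had 73.7, 77.4, and 31.2 CPM at LD 16:8 against 14.4, 23.1, and 29.7 CPM in diapausing females at the CDL. In nondiapausing females it had 8.49, 9.72, and 11.3 CPM at the CDL against 53.3, 32.6, and 32.9 CPM at LD 22:2. In both types of female the groups were separate, by a narrow margin in diapausing females. The fit gave contig_19190 a log2 fold change of -1.73 (standard error 0.240; FDR 1.48e-08, and 0.00801 in the quasi-likelihood test), with -2.15 in line 175OJ8 alone (FDR 2.42e-05). Of the lower contigs of both tests whose groups did not overlap within either type of female, the 10 with the lowest FDR also included contig_25292, contig_29334, contig_3677, contig_27159, and contig_11103, with log2 fold changes of -1.56, -1.55, -1.04, -1.21, and -1.19 over all libraries and of -1.82, -1.40, -0.96, -1.42, and -1.35 in line 175OJ8 alone. All 10, with *CG10177* and *MED28* among them, were DE in line 175OJ8 alone, and 9 of the 10 were DE with the replicate block, the exception being contig_11103 (adjusted *P* 0.0419 without and 0.0554 with the block in limma-voom).

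Of the 9 contigs that were higher at the CDL in both tests, the median log2 fold change was 0.98, with a range of 0.72 to 3.28. In 7 of the 9, every CDL library lay above every other library of the same state (0.813% of all contigs), and in 2 all 6 CDL libraries lay above all 6 others (0.0736% of all contigs). As with the lower contigs, this separation was in large part fixed by the choice. Within one type of female, 6 of the 9 were DE in diapausing and 2 in nondiapausing females.

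*Pepck* (contig_1338) encodes phosphoenolpyruvate carboxykinase, an enzyme of gluconeogenesis and glycerol formation. In diapausing females it had 155, 203, and 160 CPM at LD 16:8 against 343, 329, and 370 CPM at the CDL. In nondiapausing females it had 375, 362, and 189 CPM at the CDL against 105, 115, and 116 CPM at LD 22:2. The CDL libraries lay above the others in both types of female, and the nondiapausing library of line 3OL8, the one with the fewest reads, was the lowest of the CDL libraries. The log2 fold change of *Pepck* was 1.24 (standard error 0.231; FDR 0.000209, and 0.00881 in the quasi-likelihood test), and in line 175OJ8 alone it was 1.37 (FDR 0.000487). A second contig with the same blast hit, contig_1828, had 168, 63.7, and 150 CPM at LD 16:8 and 200, 164, and 220 CPM in diapausing females at the CDL, which overlapped. In nondiapausing females contig_1828 had 202, 205, and 129 CPM at the CDL and 49.8, 72.2, and 77.4 CPM at LD 22:2, without overlap. Its log2 fold change was 1.02 (standard error 0.261; FDR 0.0185, and 0.0798 in the quasi-likelihood test).

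*Gprk2* (contig_12109) encodes a kinase of G protein-coupled receptors that also acts in Hedgehog signaling. It had 11.3, 12.2, and 12.8 CPM at LD 16:8 and 17.1, 19.8, and 16.7 CPM at LD 22:2, against 23.8, 23.5, and 22.7 CPM in diapausing and 23.7, 24.4, and 27.9 CPM in nondiapausing females at the CDL. All 6 CDL libraries lay above all 6 others, and the 3 lines overlapped. The fold change of *Gprk2* on the log2 scale was 0.72 (standard error 0.146; FDR 0.000636, and 0.018 in the quasi-likelihood test). In line 175OJ8 alone it was 0.69 and not DE (FDR 0.111). The other contig with all 6 CDL libraries above all others was contig_13109, with 8.94 to 13.2 CPM at the CDL and 3.46 to 8.26 CPM at the other cycles, a log2 fold change of 0.98 (standard error 0.191; FDR 0.00033, and 0.0283 in the quasi-likelihood test).

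The remaining contigs of this kind differed strongly between diapausing and nondiapausing females. contig_12770 had 1.74, 1.87, and 2.24 CPM at LD 16:8 and 4.68, 4.21, and 4.59 CPM in diapausing females at the CDL, against 39.3, 49.2, and 43.0 CPM in nondiapausing females at the CDL and 26.6, 33.0, and 29.6 CPM at LD 22:2. contig_26989 had 5.22, 8.30, and 9.38 CPM at LD 16:8 and 15.0, 19.2, and 17.6 CPM in diapausing females at the CDL, against 80.3, 85.0, and 79.9 CPM in nondiapausing females at the CDL and 61.1, 72.9, and 56.1 CPM at LD 22:2. In both, the diapausing libraries were far below the nondiapausing ones, and the CDL libraries were above the others of their state. Their log2 fold changes at the CDL were 0.88 and 0.77 (FDR 0.00804 and 0.00685, and 0.0235 and 0.0443 in the quasi-likelihood test). contig_31381 and contig_18812 had the reverse order of states, being higher in diapausing females at the CDL by log2 fold changes of 1.54 and 1.29. Their log2 fold changes at the CDL were 1.11 and 1.06 (FDR 0.000259 and 0.000667, and 0.0283 and 0.0453 in the quasi-likelihood test). Of the contigs higher in both tests, *Pepck* and contig_31381 were DE in line 175OJ8 alone. With the replicate block in limma-voom, the calls of *Pepck*, *Gprk2*, contig_13109, and contig_31579 held. The last of these, also higher in both tests, had a log2 fold change of 0.94 at the CDL. The calls of contig_31381, contig_18812, and contig_26989, each with an adjusted *P* of 0.0419 without the block, were lost. With the block it was 0.0554 for contig_31381, 0.0584 for contig_18812, and 0.0558 for contig_26989. In limma-voom contig_12770 was not DE either without (adjusted *P* 0.0665) or with the block (0.0899).

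**Figure D2:**
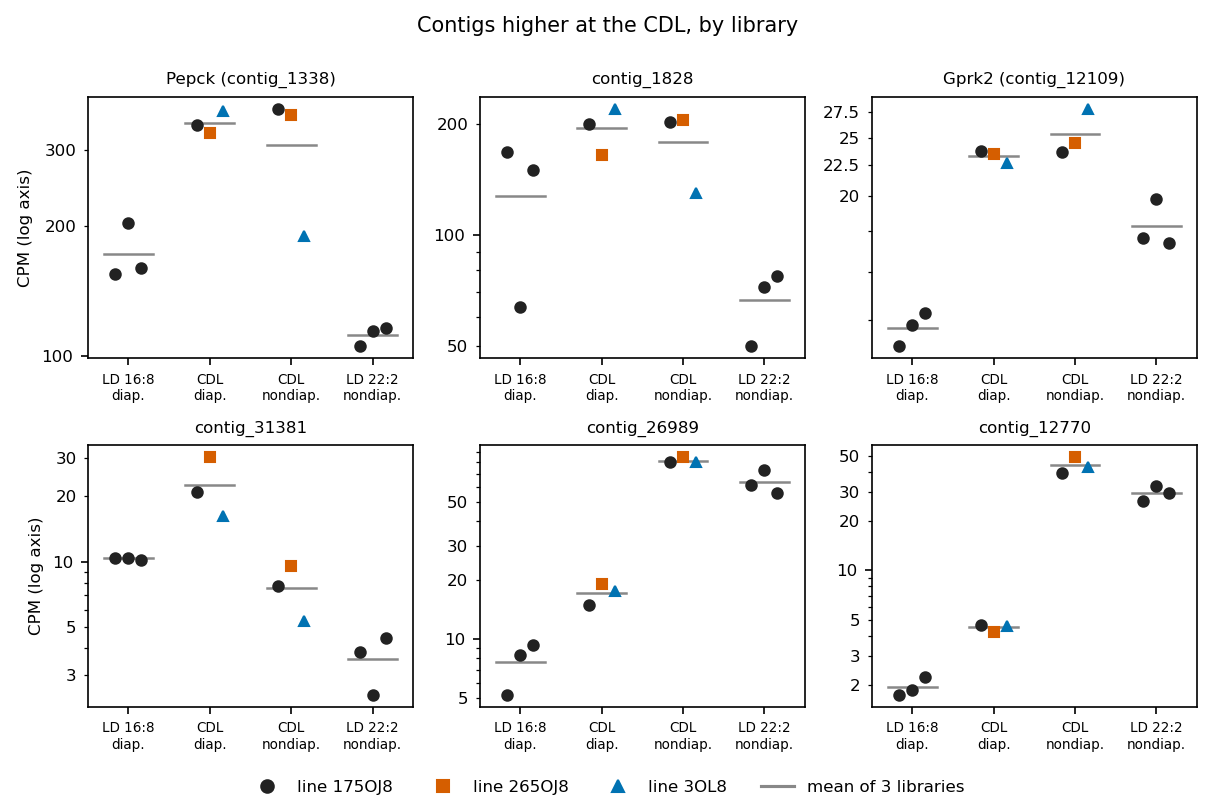
CPM per library (log axis) of 6 contigs that were higher at the CDL, in the 4 groups, with the isofemale line as symbol and the mean of 3 libraries as a bar. *Gprk2* is above all other libraries in all 6 CDL libraries, while contig_26989 and contig_12770 are also far higher in nondiapausing than in diapausing females. contig_1828 has the same blast hit as *Pepck* and passed the likelihood ratio test but not the quasi-likelihood test.

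Line 175OJ8 is the only line that was kept at all 3 light cycles, with 1 library in each CDL group and 3 in each other group. In its 8 libraries, which are all part of the comparison above, the spread comes from the other light cycles and the lone CDL libraries are taken to vary alike. With these libraries alone, 297 contigs (0.951%) were DE at the CDL, 244 lower and 53 higher, and the quasi-likelihood test called 189. Of the 220 contigs lower over all libraries, 71 were among them, and all 220 had a negative log2 fold change in line 175OJ8, as did 50.2% of all contigs. Since the libraries of line 175OJ8 hold all 6 of the other light cycles and helped to choose these contigs, the shared sign was in large part fixed by the choice. Of the 114 contigs higher over all libraries, 9 were among them, and 87 had a positive log2 fold change in line 175OJ8. Both CDL libraries of line 175OJ8 lay beyond the libraries of the other cycle of their own state, in the direction of the full comparison, for 178 of the 220 lower contigs (8.98% of all contigs) and for 41 of the 114 higher contigs (9.65% of all contigs). For the contigs of both tests this held in 48 of 49 lower and in 7 of 9 higher ones. The 49 lower contigs had a median log2 fold change of -1.28 in line 175OJ8 alone, and 33 of them were DE there.

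With isofemale line as a term, the comparison rests on line 175OJ8 but draws on the spread of all 12 libraries. It gave 334 DE contigs (1.07%), 266 lower and 68 higher, and 216 in the quasi-likelihood test. The total equals that without the term, yet 90 contigs are shared between the fits, 78 lower and 12 higher. Of the contigs of both tests, 34 of 49 lower and 4 of 9 higher ones were DE with the line term. The difference of lines 265OJ8 and 3OL8 from line 175OJ8 at the CDL was itself DE in 320 contigs (1.02%), of which 194 were higher and 126 lower in lines 265OJ8 and 3OL8, and in 170 contigs in the quasi-likelihood test. It was DE in 5 of the 220 contigs lower at the CDL and in 35 of the 114 higher ones.

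**Figure D3:**
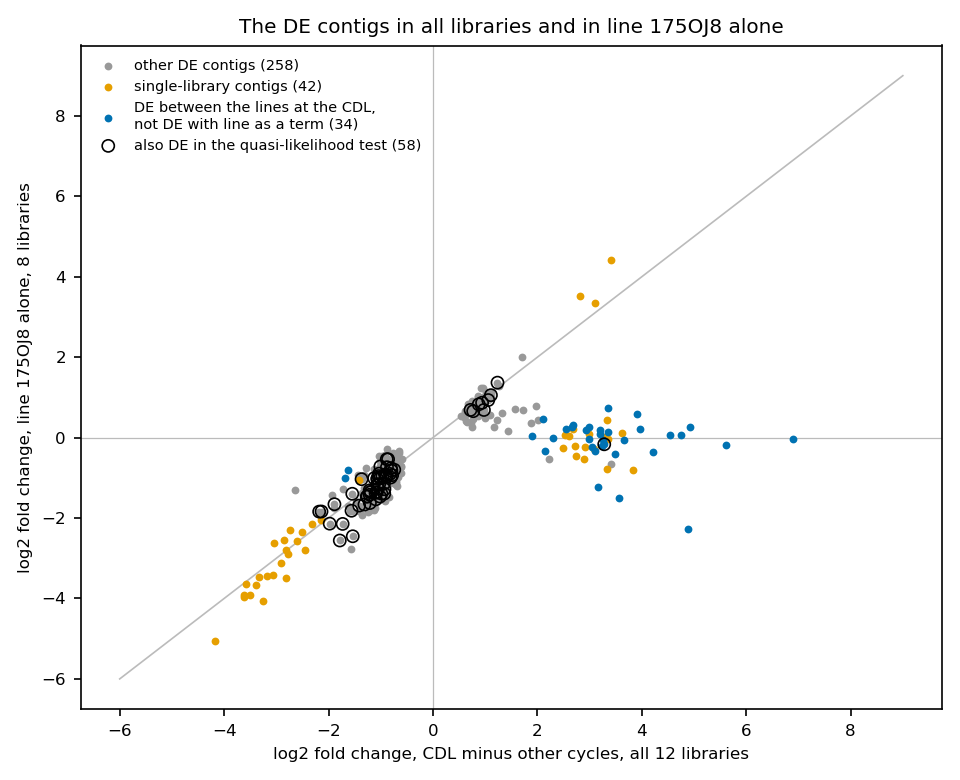
Log2 fold change at the CDL of the 334 DE contigs over all 12 libraries (x axis) and in the 8 libraries of line 175OJ8 alone (y axis), with equal values on the diagonal line. All 220 lower contigs are below 0 on both axes, whereas most of the 34 contigs that were DE between the lines and not DE with line as a term (blue) are near 0 in line 175OJ8. The 58 contigs of both tests are circled.

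A group of 34 contigs was DE at the CDL over all libraries and DE between the lines, and not DE with line as a term. Of these, 32 were higher at the CDL, with a median log2 fold change of 3.24 over all libraries and of 0.03 in line 175OJ8 alone. For 28 contigs, both CDL libraries of line 3OL8 were more than 2 times as high as every library of line 175OJ8, and those of line 265OJ8 were not. For 3 contigs this held for line 265OJ8 only and for 1 contig, *dpp*, for both lines. Over all contigs it held in 49 for line 3OL8 only and in 5 for line 265OJ8 only. The quasi-likelihood test called 1 of the 34, again *dpp*. Of the 32 higher contigs, 7 have no blast hit, and among all 334 DE contigs 18 (5.39%) have none, against 1.03% of all contigs.

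*dpp* (contig_19630) encodes a BMP-type growth factor that patterns the embryo, the imaginal discs, and the egg chamber. Its 8 libraries of line 175OJ8 ranged from 5.81 to 13.5 CPM, with 13.5, 12.7, and 12.8 CPM at LD 16:8 and 13.2 CPM in diapausing females at the CDL. Lines 265OJ8 and 3OL8 at the CDL had 204 and 244 CPM in diapausing females and 70.1 and 102 CPM in nondiapausing females. Line 175OJ8 at the CDL thus overlapped with the same line at LD 16:8 in diapausing females, was just below LD 22:2 (6.08 to 8.16 CPM) in nondiapausing females with 5.81 CPM, and was far below the other lines. The fold change of *dpp* on the log2 scale was 3.28 over all libraries (standard error 0.517; FDR 1.48e-05, and 0.0319 in the quasi-likelihood test), -0.17 in line 175OJ8 alone (FDR 0.922), and 3.98 for lines 265OJ8 and 3OL8 against line 175OJ8 (FDR 2.13e-33). In limma-voom *dpp* was not DE either without (adjusted *P* 0.270) or with the replicate block (0.305). contig_15718, which has the same blast hit as *dpp* and a mean of 6.5 CPM, was not DE at the CDL (log2 fold change -0.12, FDR 0.917).

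*CG12316* (contig_491) had 1052 and 839 CPM in line 3OL8 at the CDL, in diapausing and nondiapausing females, and 7.32 to 21.1 CPM in the 10 libraries of the other lines. *smooth* (contig_13779), the gene of an RNA-binding protein of the hnRNP family, had 2576 and 779 CPM in line 3OL8 at the CDL and 12.7 to 22.0 CPM in the other 10 libraries. Line 3OL8 thus stood apart in both contigs, and the log2 fold change in line 175OJ8 alone was 0.06 for *CG12316* and 0.26 for *smooth* (FDR 0.981 and 0.827), against 4.75 and 4.93 over all libraries. contig_23710 was high in line 265OJ8 instead, with 1928 CPM in diapausing and 2518 CPM in nondiapausing females at the CDL and 11.5 to 19.1 CPM in the other 10 libraries. contig_333, which has no blast hit, had 324 and 80.5 CPM in line 3OL8 at the CDL and was under 1 CPM in every library of the other lines. The 2 contigs of this group that were lower at the CDL were contig_16977 and contig_25379. In contig_16977 the values at the CDL were 6.10, 2.00, and 0.97 CPM in diapausing and 5.36, 5.30, and 0.89 CPM in nondiapausing females, against 7.98 to 17.2 CPM at the other cycles. Its log2 fold change was -1.69 over all libraries (FDR 0.000216, and 0.0509 in the quasi-likelihood test) and was not DE in line 175OJ8 alone (FDR 0.07). In limma-voom the adjusted *P* of contig_16977 was 0.0419 without and 0.0554 with the replicate block.

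**Figure D4:**
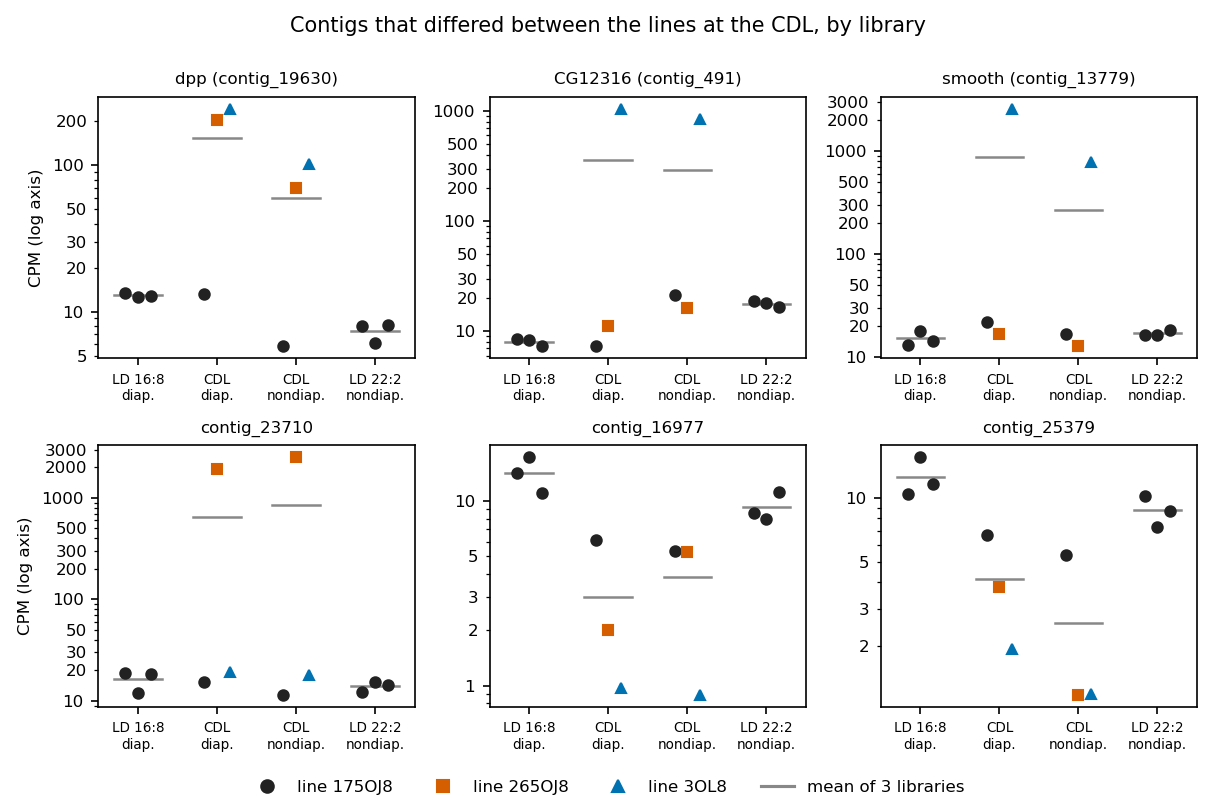
CPM per library (log axis) of 6 contigs that were DE at the CDL over all libraries and differed between the lines, in the 4 groups, with the isofemale line as symbol and the mean of 3 libraries as a bar. In *CG12316* and *smooth* the 2 libraries of line 3OL8 stand far above all others, in contig_23710 those of line 265OJ8, and in *dpp* both lines, while line 175OJ8 at the CDL lies close to the other light cycles.

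In 124 contigs (0.397%) a single library was at least 5 times as high as every other library, a definition that an earlier analysis of these data chose after seeing them. Of the 334 contigs DE at the CDL, 44 were of this kind, 21 higher and 23 lower, and none of the 58 contigs of both tests was. The high library sets the sign in contigs of this kind, so it was a CDL library in all 21 higher contigs. It was a library of another light cycle in all 23 lower contigs. The highest library was a median of 117 times as high as the next in these 44 contigs. *Lrrk* (contig_19701), a kinase gene of the LRRK family, had 1876 CPM in 1 LD 22:2 library and at most 6.04 CPM in the other 11 libraries. *Liprin-alpha* (contig_16808), which acts in synapse formation, had 1241 CPM in line 265OJ8 (diapausing females, CDL) and 2.07 to 8.61 CPM in the other 11. Their FDR was 0.00792 and 0.0071 in the likelihood ratio test and 0.212 and 0.172 in the quasi-likelihood test.

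The study lists 72 contigs with *D. melanogaster* orthologs under neurogenesis, ion transport, reproduction, and metabolism. They were chosen on these same libraries, from comparisons that share all of the libraries used here, so their number and direction are a description and not independent evidence. Of the 72, 47 were DE at the CDL, 21 higher and 26 lower, where 1.07% of all contigs were DE. The median log2 fold change of the 72 was 0.41, against 0.01 over all contigs. The quasi-likelihood test called 10 of the 72, limma-voom with the replicate block 7, and 36 of the 72 were high in a single library, 23 of the 47 DE contigs among them. In line 175OJ8 alone, 15 of the 72 were DE. The reproduction list had 8 higher and 4 lower contigs of 20 and the metabolism list 13 higher and 15 lower of 46. The neurogenesis list had 6 higher and 7 lower of 20 and the ion transport list 1 higher and 5 lower of 10. Their median log2 fold changes were 0.86, -0.09, 0.68, and -0.88 for reproduction, metabolism, neurogenesis, and ion transport. Without the contigs high in a single library, these medians were 0.86, 0.64, 0.86, and -1.06 in the same order. That of the 72 listed contigs was then 0.60.

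Leaving out those of a single library, 24 listed contigs were DE at the CDL, 12 higher and 12 lower. Besides the 10 named above that passed both tests, the lower ones were *CG14741* (contig_8801), *CG16904* (contig_19193), *Ctr1C* (contig_30325) of copper uptake, *NT5E-2* (contig_7281) of nucleotide breakdown, and *Rh50* (contig_10780) of ammonium transport, with log2 fold changes of -1.17, -0.96, -0.96, -0.77, and -0.79. In diapausing females *CG14741* had 27.4, 32.8, and 18.6 CPM at LD 16:8 against 8.54, 18.2, and 6.29 CPM at the CDL, and it had 8.19, 7.36, and 5.34 CPM at the CDL against 18.7, 12.3, and 14.2 CPM at LD 22:2 in nondiapausing females. Its groups did not overlap within either type of female, and its FDR was 0.000799 in the likelihood ratio test, 0.0509 in the quasi-likelihood test, and 0.00831 in line 175OJ8 alone. In limma-voom the adjusted *P* of *CG14741* was 0.0463 without and 0.0609 with the replicate block. The higher ones were *CG12316* and *smooth* of line 3OL8, *Abl* (contig_9106), *CG13283* (contig_23003), *CG2543* (contig_11256), *Mdr49* (contig_14279), *Sym* (contig_20642), *wash* (contig_19416), and *Yp2*. *Sym* encodes symplekin, a scaffold for the 3′ processing of messenger RNA, and had 18.5, 10.6, and 13.1 CPM at LD 16:8 against 53.9, 26.1, and 35.8 CPM in diapausing females at the CDL. In nondiapausing females *Sym* had 164, 158, and 151 CPM at the CDL against 84.7, 125, and 133 CPM at LD 22:2. The CDL libraries lay above the others in both types of female, with a log2 fold change of 0.96 (standard error 0.232; FDR 0.00942, and 0.0583 in the quasi-likelihood test) and of 1.23 in line 175OJ8 alone (FDR 0.0024). The call of *Sym* held in limma-voom (adjusted *P* 0.0464) and was lost with the replicate block (0.0641). *Abl*, a tyrosine kinase gene of axon guidance, was highest in line 3OL8, with 49.3 and 22.0 CPM at the CDL against 4.68 to 11.3 CPM in the CDL libraries of the other lines and 2.65 to 6.08 CPM at the other cycles.

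Whether the difference at the CDL depends on the type of female was tested as the difference in diapausing females minus that in nondiapausing females. It was DE in 1 contig (0.0032%) by likelihood ratio and in none in the quasi-likelihood test of edgeR, and in 5 with a replicate block as a term, with 1059 and 990 contigs in the first 2 tests at an unadjusted *P* under 0.05. With any 1 library left out the likelihood ratio test called more contigs, from 8 (without nondiapausing females of line 265OJ8 at the CDL) to 27 (without diapausing females of that line). With all libraries the contig was that of *CG16904* (contig_19193), a gene of the family of fatty acid elongases. In diapausing females it had 26.1, 22.2, and 23.5 CPM at LD 16:8 against 7.11, 4.61, and 5.32 CPM at the CDL. Its values in nondiapausing females were 6.26, 2.65, and 4.16 CPM at the CDL and 3.13, 3.65, and 4.98 CPM at LD 22:2. The LD 16:8 libraries were thus above all 9 others, which overlapped. At the CDL the log2 fold change of *CG16904* was -2.07 in diapausing females (FDR 6.03e-08) and 0.15 in nondiapausing females, where it was not DE, and the difference between these was -2.22 (standard error 0.446, FDR 0.0185).

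The yolk protein genes had larger log2 fold changes at the CDL in diapausing than in nondiapausing females, but the difference between these was not DE. Its FDR in the likelihood ratio test was 0.9998 for *Yp2* and for *Yp3* (unadjusted *P* 0.0184 and 0.00717). *Yp2* had 23.5, 29.7, and 37.9 CPM at LD 16:8 against 124, 56.9, and 79.3 CPM in diapausing females at the CDL, without overlap. In nondiapausing females it had 453, 442, and 388 CPM at the CDL and 258, 366, and 389 CPM at LD 22:2, which overlapped. The fold change of *Yp2* on the log2 scale was 0.93 (standard error 0.249; FDR 0.0281, and 0.0708 in the quasi-likelihood test), with 1.52 in diapausing and 0.34 in nondiapausing females. *Yp3* (contig_633) had 102, 123, and 125 CPM at LD 16:8 against 493, 299, and 206 CPM in diapausing females at the CDL, and 1493, 1033, and 931 CPM at the CDL against 848, 985, and 1233 CPM at LD 22:2 in nondiapausing females. Its log2 fold change at the CDL of 0.84 (standard error 0.247) was not DE over all libraries (FDR 0.0597) and was 1.31 in line 175OJ8 alone (FDR 0.0159). *Lsp2* (contig_653), the gene of a storage protein of the hemolymph, had 5632, 5031, and 2483 CPM in diapausing and 1211, 726, and 197 CPM in nondiapausing females at the CDL. At the other cycles it had 6232, 5162, and 4684 CPM at LD 16:8 and 32.0, 54.9, and 266 CPM at LD 22:2. The groups overlapped in both types of female, and *Lsp2* was not DE at the CDL over all libraries (log2 fold change 1.15, standard error 0.432, FDR 0.234). Within nondiapausing females it was DE, with a log2 fold change of 2.60 (FDR 0.0333), against -0.29 in diapausing females (FDR 0.979), and the difference between these was not DE (FDR 0.389). With the line term the log2 fold change of *Lsp2* was 1.76 (FDR 0.0265).

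Several contigs often carry the same blast hit, and which of them belong to one gene is not settled by the hits. Among the 58 contigs of both tests, 47 have a hit that is no genomic scaffold and is shared by at most 20 contigs, and 29 of these share it with 52 further contigs of at least 1 CPM. Of those 52 contigs, 2 were DE at the CDL, both in the direction of the contig with which they share the hit, while 1.02% of all contigs with such a hit were DE. One of them is contig_1828, which shares the hit of *Pepck*. The 48 contigs that share a hit with a lower contig had a median log2 fold change of -0.09. Among the contigs sharing the hit of contig_4922, contig_397 had the opposite sign, with a log2 fold change of 1.46 (standard error 0.443; FDR 0.0834, and 0.237 in the quasi-likelihood test). It had 1751 and 514 CPM in diapausing and nondiapausing females of line 3OL8 at the CDL and 88.2 to 298 CPM in the other 10 libraries, and in line 175OJ8 alone its log2 fold change was 0.13. contig_397 was DE without both libraries of line 265OJ8 (log2 fold change 1.83) and with 3 of the 12 libraries each left out in turn, and without both libraries of line 3OL8 its log2 fold change was 0.14. The contig that shares the hit of *MED28*, contig_14952, had 2.28 to 9.96 CPM, a log2 fold change of 0.25, and an FDR of 0.817, and contig_28526, which shares that of *CG10177*, had 0.997 to 3.86 CPM, a log2 fold change of 0.18, and an FDR of 0.923.

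The number of DE contigs depended on single libraries. With each library left out in turn it ranged from 166 to 441. It moved by over 1.5 times when LD 22:2 replicate 1 (166), LD 16:8 replicate 2 (191), or a nondiapausing CDL library, that of line 265OJ8 (178) or that of line 3OL8 (209), was left out. Of the 58 contigs of both tests, 56 to 58 remained DE in the likelihood ratio test with each library left out, and all 58 kept their direction. Since the 58 were chosen on all of these libraries as those that also passed the quasi-likelihood test, this was in large part fixed by the choice. Of the 49 lower contigs, 35 had their highest value at LD 16:8 in replicate 2 (35.1% of all contigs) and 36 their lowest in replicate 3 (34.3% of all contigs). At LD 22:2, 29 had their highest value in replicate 1 (33.7% of all contigs) and 30 their lowest in replicate 2 (31.8% of all contigs). The part of this spread within the groups in the difference at the CDL was not tested.

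**Figure D5:**
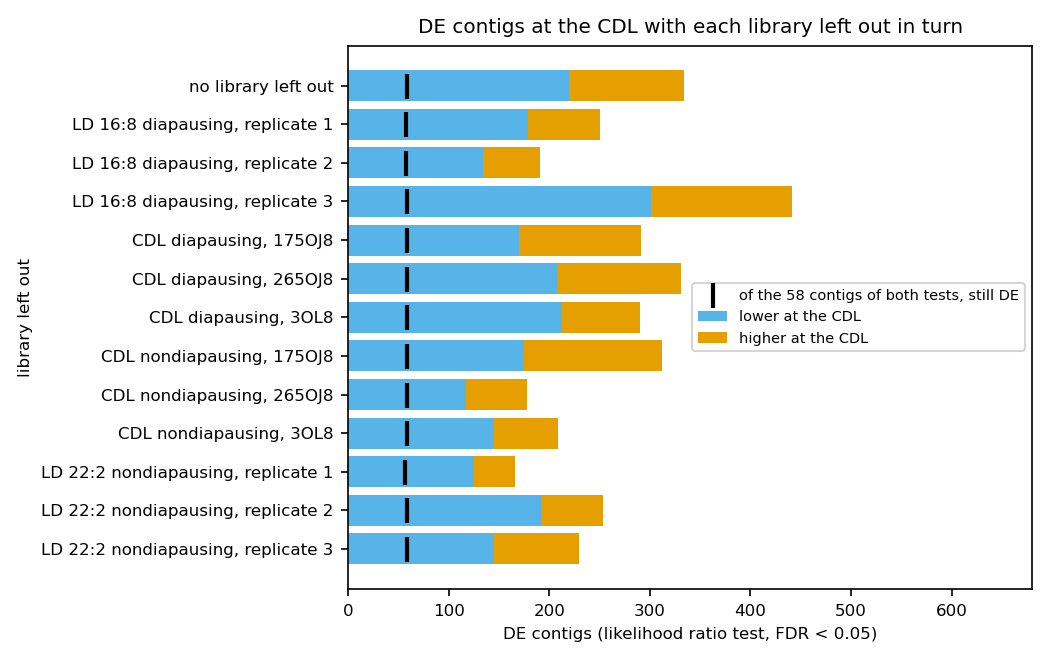
Number of contigs DE at the CDL in the likelihood ratio test (x axis) with each library left out in turn (y axis), divided into lower and higher contigs, with a black mark for how many of the 58 contigs of both tests were still DE. The total runs from 166 to 441, and the black mark stays between 56 and 58. The 58 were chosen on all of these libraries, which in large part fixes the place of the black mark.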

How the data were processed

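Counts were analyzed for 12 libraries of whole females. The authors deposited, for each library, the whole-number count of reads that mapped uniquely to each contig, counted with HTSeq, without normalization. The reads were SOLiD reads mapped by the authors with CLC Genomics Workbench to their *de novo* transcriptome, from which contigs with a nonarthropod hit had been discarded. All 31233 contigs were tested, 12 blank lines of the files were dropped, and no filter on low counts was applied. The tools were edgeR 4.0.16, DESeq2 1.42.0, and limma 3.58.1 in R 4.3.3. As in the methods of the study, TMM normalization, Cox-Reid dispersions, and a GLM with likelihood ratio tests were used, with Benjamini and Hochberg FDR under 0.05 over all contigs. The GLM had the 4 groups, and the contrast was the mean of the CDL groups minus the mean of the others. This contrast is proportional to the study's diapause state by light cycle interaction, where the shorter day is compared with the longer within each state. The dependence of the CDL difference on diapause state is another contrast and was tested apart. Fold changes used a prior count of 0.125. The TMM factors of diapausing libraries were 0.837 to 0.921 and those of nondiapausing libraries 1.09 to 1.15, and the biological coefficient of variation was 0.237. Counting error covers only part of the spread between libraries, and the reads carry no molecular identifiers.

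The contigs named were chosen by rule: up to 10 higher and 10 lower contigs with the lowest FDR that were DE in both tests, did not overlap within either state, and had the same direction in line 175OJ8; listed contigs that were DE; up to 5 contigs DE between the lines; up to 3 contigs that depended on state; *Yp2*, *Yp3*, and *Lsp2*; and contigs of at least 1 CPM sharing a hit with the first group. Hits to genomic scaffolds were left out of this last rule after seeing that very many contigs share them, as were hits shared by over 20 contigs from the counts of sharing contigs. The members and lists were chosen with earlier results of these data known. The 15189 distinct hits were compared with a table of 15263 genes, and 0 matched, so most contigs are given by name only. Alternatives were the quasi-likelihood test, DESeq2, limma-voom, other normalization, filters, and dispersions, an additive model, line and replicate blocks, and libraries left out. The procedure was tested on simulated data. After removing group means, the diapausing and nondiapausing CDL libraries of each line correlated by 0.222, 0.153, and 0.341 over 30474 contigs, so the lines pair them. Replicates 1, 2, and 3 of the other cycles correlated by -0.0213, -0.122, and 0.0673, all lower than the values of the lines. The replicate block still paired the libraries of the other cycles by replicate number. Results with the replicate block thus rest in part on a pairing that these correlations give little ground for.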

Additional observations from a re-analysis of the deposited data

Results flagged for a closer look

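*CG16904* (contig_19193) stood out because its difference at the CDL was not the same in both types of female. The test of the difference itself gave a log2 value of -2.22 in edgeR's likelihood ratio test (FDR 0.0185). The quasi-likelihood test did not call it.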

How the results depend on the processing

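Against 334 contigs DE at the CDL, the quasi-likelihood test gave 58, limma-voom 70, limma-voom with a replicate block 40, limma-voom with line as a random effect 36, and the line term with the quasi-likelihood test 216; leaving out 1 library gave 166 to 441. The direction of the 58 contigs of both tests held in every alternative but those resting on line 175OJ8 (57 of 58), and the replicate block called 36 of them and the random line 32. Since the 58 were chosen on these same libraries, their direction was in large part fixed by the choice. Of the 72 listed contigs 47 were DE, against 10 of the 72 in the quasi-likelihood test, 17 and 12 with the line term in the likelihood ratio and quasi-likelihood tests (11 of these 17 being among the 47), 15 in line 175OJ8 alone, 27 without line 3OL8 and 26 without line 265OJ8, 18 in the additive model, 11 in limma-voom, 7 with the replicate block, 7 with the random line, 22 in DESeq2, and 24 to 39 with 1 library left out. Dependence on diapause state was called for 1 contig, and for 0 in the quasi-likelihood tests without and with line, 32 in line 175OJ8 alone, 24 without line 3OL8, 22 without line 265OJ8, 5 with a replicate block, 2 in DESeq2, and 8 to 27 with 1 library left out. In line 175OJ8 the 297 contigs became 189 in the quasi-likelihood test and 176 to 535 with 1 library left out (176 without LD 22:2 replicate 1, 535 without LD 16:8 replicate 3); leaving out a CDL library of the line leaves an empty group and gave no value. The quasi-likelihood test, an alternative chosen after seeing the data for these, gave 216 with the line term and 170 for the line difference. The log2 fold change changed sign with the line term and in line 175OJ8 alone for *dpp* (-0.17 in all 3 fits), contig_333 (-0.094, -0.098, and -0.036), and contig_23710 (-0.18, -0.18, and -0.19). The cause was not tested. Libraries without TMM factors put 61.0% and TMM 65.9% of the DE contigs lower, and DESeq2 gave no adjusted *P* for 12856 contigs.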
